A study of Mus musculus with 6 samples.

Results

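ERVL peaks are the H3K9me3 peaks whose centre the deposited annotation places in an endogenous retrovirus of the ERVL family. They were taken from a list of 34673 peaks headed as specific to wild type (WT) Bergmann glia (BG), astroglia whose radial fibres span the molecular layer of the cerebellum. Of these, 551 had the family name ERVL exactly, which is 1.59% of the list (95% Wilson interval 1.46 to 1.73%; all intervals here cover counting error only). They carried 61 element names. A further 1 peak bore the uncertain family name "ERVL?" and was left out.

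The study ran H3K9me3 ChIP-seq on BG of C57BL/6 mice at postnatal day 10, with 2 WT, 2 Setdb1 mutant and 2 control libraries. WT BG were sorted by their GFP from mice with the Nes-GFP reporter, and mutant BG from mice that in addition had floxed Setdb1 and the mGFAP-Cre transgene, which acts in cerebellar nerve cells other than Purkinje cells and not in BG alone. In the study's definition, sites that depend on Setdb1 are H3K9me3 peaks found in WT BG and not in mutant BG. The control libraries were labelled both as input and as IgG, and no source used here says whether the libraries of a genotype came from separate animals. The list held 1 merged score and position for each peak and no value for any library, so no spread between replicates and no comparison of WT with mutant BG can be given, and depth is unknown. The identity of the sorted cells could not be checked against markers, since the list holds no expression values.

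Endogenous retroviruses are remnants of past infections of the germline. A complete copy, or provirus, has an inner part that codes for viral proteins and a long terminal repeat (LTR) at each end, and recombination between the LTRs can leave a lone LTR behind. ERVL is one of the oldest such families in mammals, but its mouse branch MERVL (inner part MERVL-int, LTR MT2_Mm) spread recently and is known for its burst of transcription in the embryo at the 2-cell stage, where MT2 LTRs drive nearby genes. Setdb1 is a methyltransferase that places H3K9me3, a mark of silent chromatin, and is known for its part in the silencing of several retrovirus families.

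The sequences that follow show the central 300 bp of the highest-scoring peak in each of the main groups of ERVL names, read from RefSeq GRCm38.p6 (the same build as mm10), with CpG dinucleotides in capitals. The MERVL-int stretch came from chr7:44160105-44160404 on the plus strand, the MT2B stretch from chr13:120149103-120149402, the RMER15 stretch from chr12:105153446-105153745, the MLT2B3 stretch from chr12:105240780-105241079 and the LTR16B2 stretch from chr7:111848076-111848375. The last line gives the first 300 bases of the LTR upstream of that MERVL-int peak (chr7:44156020-44156319, plus strand), to set the part of the provirus under a peak beside a part with none.
MERVL-int: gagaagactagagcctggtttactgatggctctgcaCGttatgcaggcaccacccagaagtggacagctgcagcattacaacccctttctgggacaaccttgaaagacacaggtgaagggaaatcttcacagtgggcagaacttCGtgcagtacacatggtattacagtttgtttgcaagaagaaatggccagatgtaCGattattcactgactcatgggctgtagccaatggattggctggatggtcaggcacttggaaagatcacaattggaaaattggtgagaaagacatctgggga
MT2B: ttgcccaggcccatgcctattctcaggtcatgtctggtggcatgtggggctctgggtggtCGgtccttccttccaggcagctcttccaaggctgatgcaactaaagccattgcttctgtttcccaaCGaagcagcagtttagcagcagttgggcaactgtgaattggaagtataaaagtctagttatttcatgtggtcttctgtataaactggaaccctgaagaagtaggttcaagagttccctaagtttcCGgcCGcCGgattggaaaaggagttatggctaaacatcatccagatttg
RMER15: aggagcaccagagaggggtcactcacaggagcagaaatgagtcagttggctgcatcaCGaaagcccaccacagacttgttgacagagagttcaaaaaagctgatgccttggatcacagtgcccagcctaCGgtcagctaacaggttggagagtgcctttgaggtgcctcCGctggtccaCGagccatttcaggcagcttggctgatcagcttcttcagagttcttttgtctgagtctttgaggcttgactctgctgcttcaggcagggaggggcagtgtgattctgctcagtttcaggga
MLT2B3: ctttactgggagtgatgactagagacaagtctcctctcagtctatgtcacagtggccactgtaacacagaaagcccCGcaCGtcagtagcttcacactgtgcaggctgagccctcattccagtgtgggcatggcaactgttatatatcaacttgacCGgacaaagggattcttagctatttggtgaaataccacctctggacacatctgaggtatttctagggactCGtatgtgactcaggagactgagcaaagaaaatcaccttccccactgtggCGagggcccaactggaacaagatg
LTR16B2: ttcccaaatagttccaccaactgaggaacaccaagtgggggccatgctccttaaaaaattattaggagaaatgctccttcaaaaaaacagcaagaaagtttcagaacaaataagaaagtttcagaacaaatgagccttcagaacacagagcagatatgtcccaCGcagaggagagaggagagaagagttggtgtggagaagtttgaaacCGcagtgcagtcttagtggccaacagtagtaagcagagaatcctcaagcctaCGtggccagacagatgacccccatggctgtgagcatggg
LTR of the MERVL provirus: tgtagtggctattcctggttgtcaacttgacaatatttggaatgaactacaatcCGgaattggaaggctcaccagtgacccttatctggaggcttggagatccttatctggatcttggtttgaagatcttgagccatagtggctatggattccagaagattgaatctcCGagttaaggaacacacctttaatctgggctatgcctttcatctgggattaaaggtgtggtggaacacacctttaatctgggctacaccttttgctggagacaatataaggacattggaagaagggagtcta
The MERVL-int stretch held 3 CpG sites in 300 bases, the MT2B stretch 5, the RMER15 stretch 4, the MLT2B3 stretch 5, the LTR16B2 stretch 3 and the LTR stretch 2. None was rich in CpG.

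MERVL and its MT2 relatives made up most of the ERVL peaks. The inner part MERVL-int alone had 246 peaks, 44.6% of the 551 (40.5 to 48.8%). Its relative MERVL_2A-int had 16. The MT2 LTRs had 81 peaks under 6 names, of which MT2A had 43, MT2B 18, MT2B1 10, MT2B2 7 and MT2C_Mm 2. MT2_Mm, the LTR that belongs to MERVL itself, had 1 peak, on an unplaced scaffold, with a score of 5.78. MERVL and MT2 names together had 343 peaks, 62.3% of the total (58.1 to 66.2%). The listed peaks lay on the inner part of MERVL and, but for 1, not on the LTR of the same element.

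The rest of the family was spread thinly. RMER names, rodent repeats, had 102 peaks, of which RMER15 had 68, RMER10A 14, RMER15-int 12 and RMER10B 8. MLT2 names, LTRs shared with other mammals, had 22 peaks under 9 names, other LTR names had 75 under 37, and other inner parts had 9 under 3. Only 8 of the 61 names had 10 or more peaks, and 23 had a single one.

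**Figure D1:**
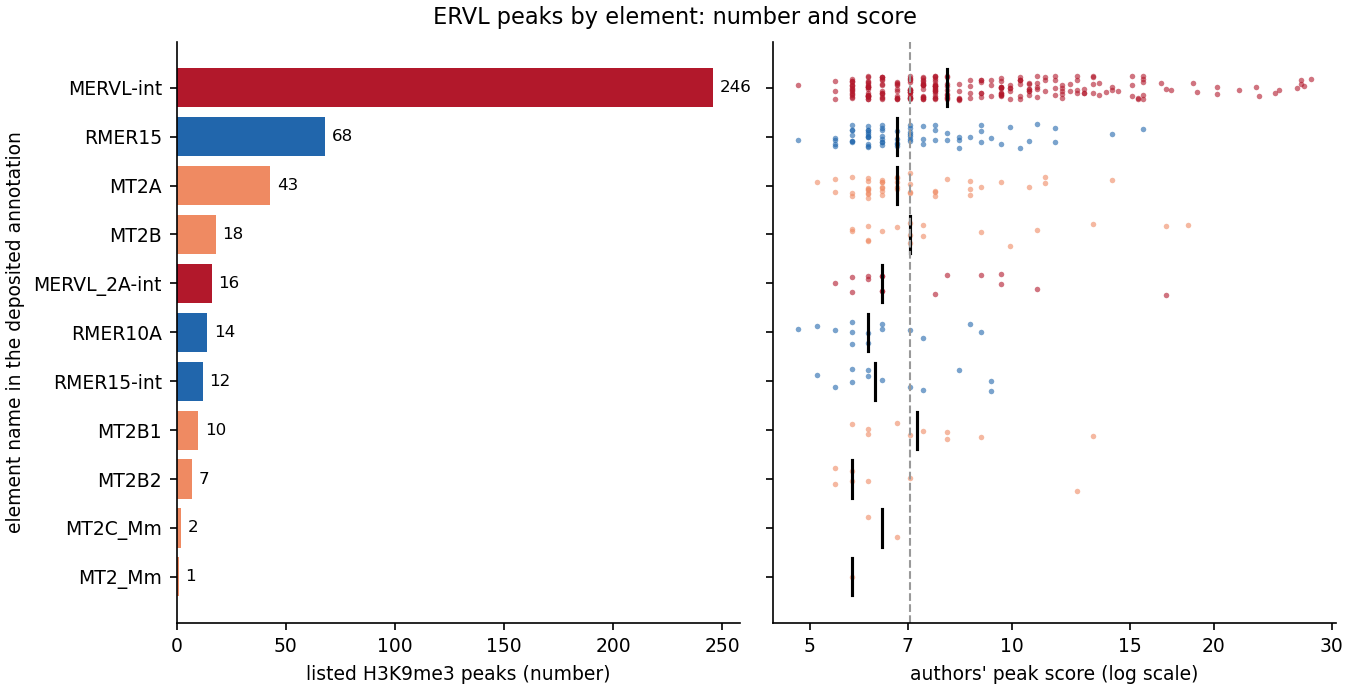
Number of listed peaks (left, bars) and the authors' peak score on a log scale (right, 1 point per peak) for each ERVL name with 10 or more peaks and each MT2 name; the black tick is the median of a name and the dashed line the median of the whole list, 7.06. MERVL-int has 246 peaks, reaches the highest score of 27.9 and has a median of 8.02, while MT2_Mm has 1 peak.

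The scores of MERVL-int peaks were above those of the list, and those of MT2A and RMER15, the next commonest ERVL names, were not. What the score is scaled to was not stated, so it was used to order peaks only. The median was 7.06 over all ERVL peaks and also 7.06 over the list. MERVL-int had a median of 8.02 (interval of the median 7.7 to 8.66), and ERVK, the family of the intracisternal A particles, had 7.7. MT2A had 6.74 (6.42 to 7.06), RMER15 6.74 (6.42 to 7.06) and RMER10A 6.1 (5.46 to 7.38). Of MERVL-int peaks, 72.8% (66.9 to 77.9%) were at or above the median of the list, against 51.7% of all listed peaks. For MT2 LTRs this share was 44.4% (34.1 to 55.3%) and for RMER names 44.1% (34.9 to 53.8%), both with intervals that held the value of the list.

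The share of the list that lay on MERVL-int was higher at higher scores. Among the 10679 peaks with scores of 4.49 to 6.1, 0.393% (0.291 to 0.531%) were MERVL-int peaks. Among the 6687 peaks with scores of 9.31 or more, 1.47% (1.20 to 1.78%) were. For all other ERVL names the share was 1.07% (0.889 to 1.28%) at the lowest scores and 0.673% (0.503 to 0.899%) at the highest. Among the 362 peaks in the top 1% of the list, with scores of at least 23.4, 8 were ERVL peaks, and each of the 8 was on MERVL-int. This was 3.25% (1.66 to 6.28%) of the MERVL-int peaks, against 2.44% (2.03 to 2.93%) of ERVK peaks, which numbered 110 of the 362, and 1.04% of all listed peaks.

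**Figure D2:**
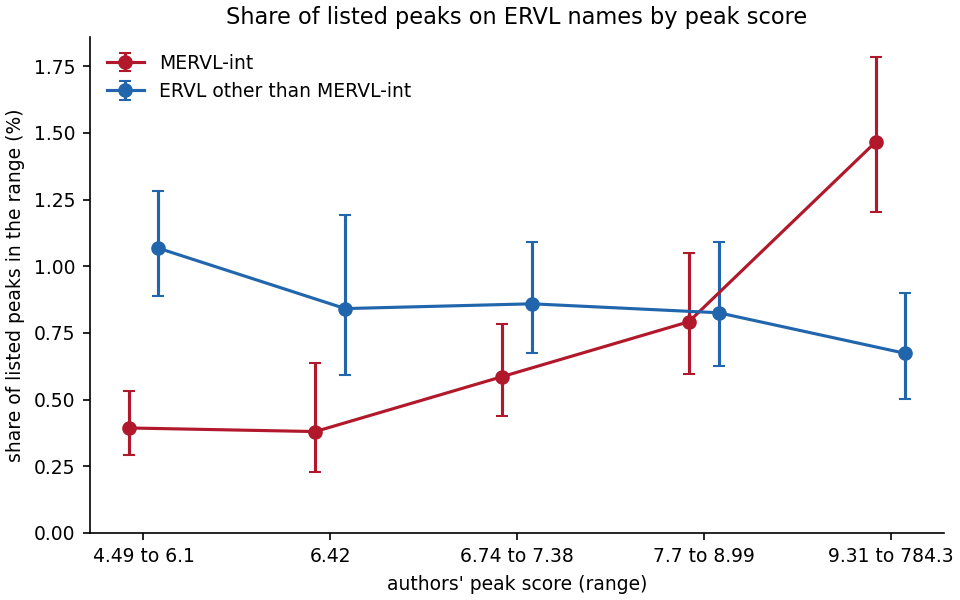
Share of listed peaks (%, with 95% Wilson intervals) that lay on MERVL-int and on all other ERVL names, in 5 ranges of the authors' peak score with equal scores kept together. The MERVL-int share goes from 0.393% in the lowest range to 1.47% in the highest, and the share of the other names from 1.07% to 0.673%.

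Wide peaks were most common on the inner parts of MERVL. The commonest width in the list was 500 bp. Of the ERVL peaks, 29.6% (25.9 to 33.5%) were wider than 500 bp, against 22.9% of all listed peaks. For the inner parts of MERVL this share was 40.5% (34.7 to 46.5%), above the 32.4% of ERVK, and for MT2 LTRs it was 22.2% (14.5 to 32.4%). Of the 27 ERVL peaks wider than 1000 bp, 22 were on MERVL-int, and the widest had 2030 bp. Within the list, score and width both come from the same tags and are not independent measures.

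The 10 highest-scoring ERVL peaks were all MERVL-int peaks. The first, chr7:44159239-44161269, scored 27.9 and was intergenic, 23.0 kb downstream of the TSS of Klk1b16, a kallikrein gene. The next were chr5:18931604-18933458 (score 27.3, 294 kb from the TSS of 4921504A21Rik), chr16:14751947-14753915 (27, 47.1 kb from Snai2, a zinc finger repressor of cell adhesion genes) and chr2:131921741-131923517 (27, in the last intron of Prn, a gene of the prion locus). Then came chr16:3767563-3769480 (26.6, 24.4 kb from Zfp263) and chr13:30318204-30319750 (25, 17.4 kb upstream of Agtr1a, an angiotensin receptor). The other 4 scored from 21.8 to 24.7 and lay nearest to Yes1, a Src-family kinase, Prex2, Rprl1 and Kcnk15, a potassium channel. Of these 10 peaks, none was within 2 kb of a TSS.

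Most MERVL-int peaks lay in proviruses with an LTR on each side, and most of their centres were in the downstream part. This was examined after the peak list had been seen. For 204 of the 242 MERVL-int peaks on chromosomes 1 to 19, X and Y (84.3%, 79.2 to 88.3%), the surrounding sequence held a pair of direct repeats on either side of the peak, 350 to 650 bp long and 3.5 to 8 kb apart. The median repeat was 494 bp long and the median spacing was 5938 bp. In 126 of the 204 the aligned repeats were identical, and in 185 they were at least 99% identical. Of the 16 MERVL_2A-int peaks, 5 had such repeats and none of these pairs was identical. In retroviruses the LTRs are identical at insertion and diverge with age.

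The provirus at the peak of highest score was used as the reference. It spans chr7:44156020-44162454 on the plus strand, is 6435 bp long, and has 2 identical LTRs of 492 bp. Its longest stretch without a stop codon has 1182 codons and runs from base 2250 to base 5795, counted from the start of the upstream LTR. Its LTR was then searched for in the genome. There were 1924 copies of at least 90% identity over at least 80% of the length, and 558 pairs of them 4.5 to 7.5 kb apart on the same strand, taken here as MERVL proviruses. A further 808 copies were outside such a pair.

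Of the 558 proviruses, 173 held the centre of a listed peak (31.0%, 27.3 to 35.0%), and 14 of these held more than 1. They held 187 peaks, of which 182 were MERVL-int peaks, so that 75.2% (69.4 to 80.2%) of the MERVL-int peaks lay on a provirus so defined. Reads that match several places were given the 1 location of best score, so which of several near-identical copies holds a peak is uncertain, and a provirus with no listed peak cannot be called free of H3K9me3. Few LTR copies outside a pair had a listed peak: 4 of 808 overlapped one (0.495%, 0.193 to 1.27%). Of the 808, 0 held a peak centre, which allows a share of up to 0.371% (3 counts of the 808). The same uncertainty over reads holds for these close copies, and those with no listed peak cannot be called free of H3K9me3.

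Along the provirus, most peak centres stood beyond the middle of its length: 154 of 187 (82.4%, 76.3 to 87.1%). None of the 187 centres was in an LTR. Counted from the upstream LTR, 179 (95.7%, 91.8 to 97.8%) fell where the reference provirus has its stretch without a stop codon. That stretch takes up 55.1% of the reference provirus, and stop codons in the other proviruses were not looked for. The median centre was 3789 bp from the start of the upstream LTR, with quartiles of 3522.5 and 4256 bp. Between 3500 and 4250 bp there were 96 centres (51.3%, 44.2 to 58.4%), in 11.7% of the length. A further 48 centres, with a median score of 8.18, lay between there and 5250 bp. Upstream, 22 centres lay between 2250 and 2750 bp, 13 between 2750 and 3500 bp, and 8 before 2250 bp. Beyond 5250 bp there was none, although the stretch without a stop codon goes on in the reference provirus.

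**Figure D3:**
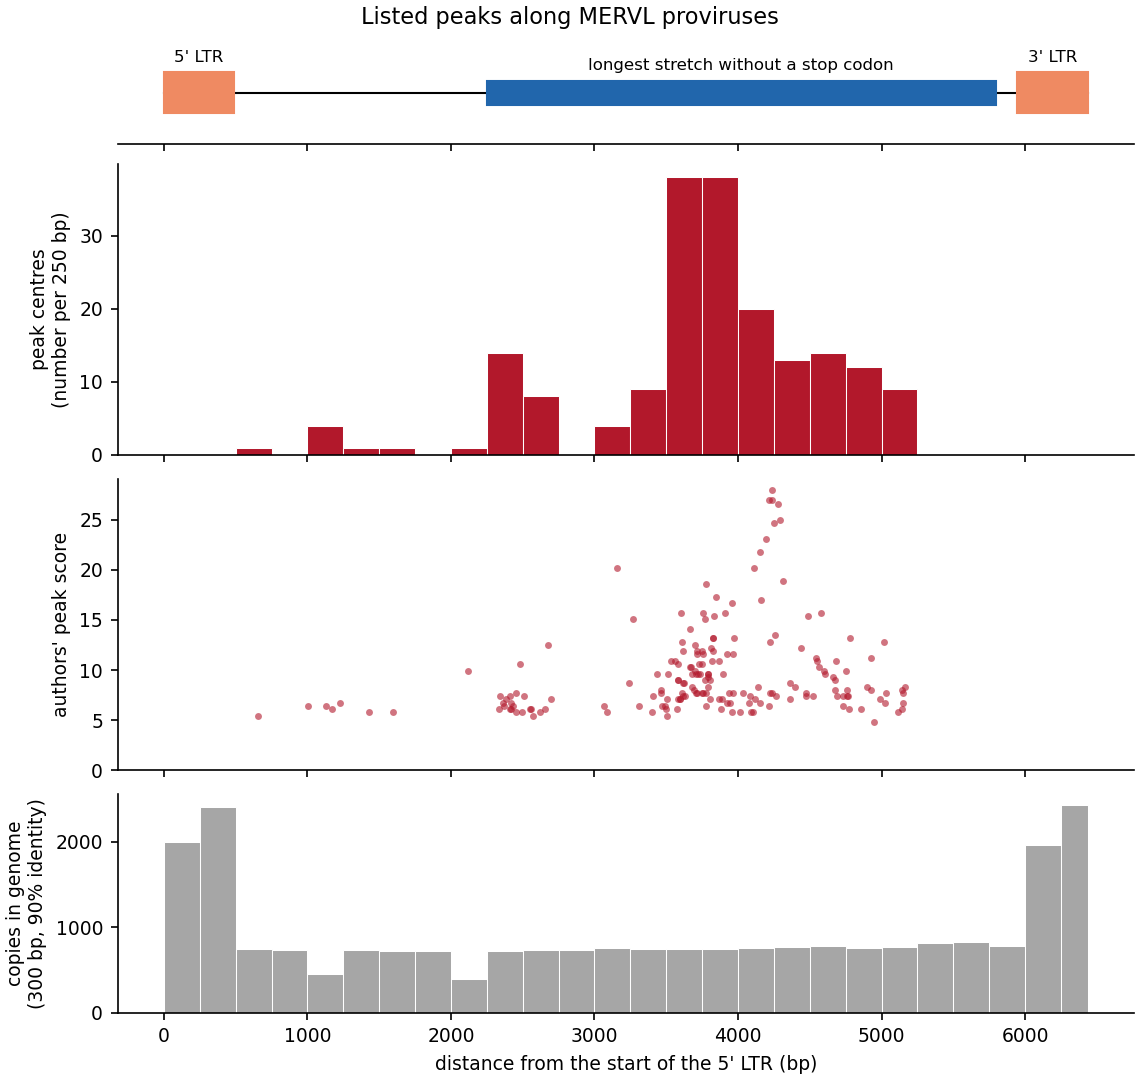
From top to bottom: the reference MERVL provirus with its LTRs (orange) and its longest stretch without a stop codon (blue); the number of listed peak centres per 250 bp over the 558 proviruses; the authors' score of each of the 187 peaks; and the number of genome copies of the 300 bp around the middle of each bin at 90% identity or more. The horizontal axis is the distance in bp from the start of the upstream LTR. Centres gather between 3500 and 5250 bp with a smaller group at 2250 to 2750 bp, and none lies in an LTR.

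The 8 highest-scoring peaks on proviruses shared nearly the same stretch. Of the 10 highest-scoring ERVL peaks, 8 lay on these proviruses, and their centres were between 4151 and 4290 bp. All 8 covered the bases from 3517 to 4976, and the widest ran from 3219 to 5249. Centres of the 20 highest-scoring peaks on proviruses were spread more widely, from 3154 to 4575 bp. The 22 peaks between 2250 and 2750 bp were weaker, with a median score of 6.42 and a highest of 12.5, against a median of 9.63 for the 96 peaks between 3500 and 4250 bp. The centre of a wide peak is the middle of a long region and marks no single site.

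Genome copies were also counted along the provirus. The reference provirus was cut into bins of 250 bp, and the 300 bp around the middle of each was searched for at 90% identity or more. In the bins from 3500 to 4250 bp there were 742 to 753 copies, and in those from 2500 to 3000 bp, with 8 centres and then 0, there were 738 and 729. The 2 bins just beyond 5250 bp, with no centre, had 812 and 822. The lowest counts were 391 in the bin from 2000 to 2250 bp, with 1 centre, and 452 in that from 1000 to 1250 bp, with 4. The 4 bins that lie wholly or mostly in the LTRs had no centre and the most copies, 1961 to 2431. How the tags of copies were shared out was not tested.

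Proviruses with and without a listed peak differed by less than counting error in LTR identity and in place relative to genes. The LTRs of the same provirus were identical in 127 of the 173 with a peak (73.4%, 66.4 to 79.4%) and in 277 of the 385 without (71.9%, 67.3 to 76.2%). The 300 bp under the peak of the reference provirus had a median identity of 99% to their counterpart in both sets, with quartiles of 98.7 and 99% in both. Of those with a peak, 28.9% (22.7 to 36.1%) lay inside a protein-coding gene, against 27.0% (22.8 to 31.7%) of those without. With the gene's strand the same as that of the provirus, 19 of 59 held a peak, and with the opposite strand 30 of 94. Each of these pairs of intervals overlapped, which does not show that the sets are equal. Which of several close copies holds a peak is uncertain, as said above, so the sets may be mixed. Of the 6 proviruses on the Y chromosome, 6 held a peak, of 33 on the X chromosome 12 (36.4%, 22.2 to 53.4%), and of 519 on autosomes 155 (29.9%, 26.1 to 33.9%). The study used mice regardless of sex, and the sex behind each library is not known here, which limits how the sex chromosomes can be read.

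**Figure D4:**
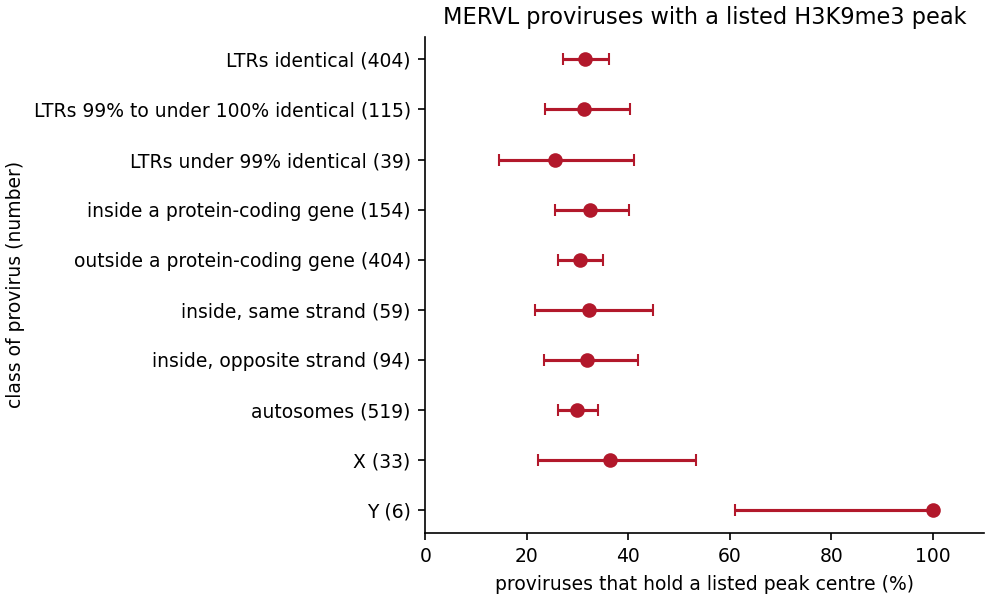
Share of MERVL proviruses (%, with 95% Wilson intervals) that hold the centre of a listed peak, by the identity of their LTRs, by their place and strand relative to protein-coding genes, and by chromosome; the number of proviruses is in brackets. Shares are near 31.0% in most classes, and all 6 proviruses on the Y chromosome hold a peak.

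The listed peaks on LTR names differed from those on MERVL-int in copy number. The central 300 bp of 546 ERVL peaks on the main chromosomes were searched for in the genome. At 90% identity over at least 80% of the length, the median number of further copies was 740 (738 to 743) for MERVL-int peaks. Of the 242, 236 had 100 copies or more, and a median of 105 of those copies overlapped a listed peak. Some peaks on other inner parts also had 100 copies or more: 6 of 16 on MERVL_2A-int and 2 of 9 on inner parts outside MERVL and RMER. For the 80 MT2 peaks the median was 0 and the highest was 25. None of the 43 MT2A peaks had a further copy, and of the 68 RMER15 peaks 62 had none. Peaks on MT2A and RMER15 thus had few or no close copies by this measure, and those on MERVL-int had many. The only MT2_Mm peak, on a scaffold, was not among those searched. The LTR of the reference provirus had 1924 copies, so the contrast does not hold for the LTR of MERVL itself.

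Base composition set MERVL apart little. The median GC content was 48.6% over ERVL peaks and 49% over the list. The ratio of observed to expected CpG had a median of 0.203 for ERVL peaks, 0.205 for the list and 0.308 for ERVK. It was 0.221 for MERVL-int, 0.21 for MT2A and 0.163 for RMER15. In the reference provirus the LTR had 12.2 CpG sites per kb and the inner part 13.2.

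Short motifs were counted on both strands. The Nuclear Factor I (NFI) motif TTGGCA, searched because the study concerns the NFI factor Nfix together with Setdb1, was in the central 300 bp of 32.2% (26.7 to 38.4%) of MERVL-int peaks. It was in 17.3% of all listed peaks, 24.1% of ERVK peaks and 18.8% (11.7 to 28.7%) of MT2 peaks. The MERVL-int peaks share their sequence and so are not separate cases: the reference provirus has 6 such sites, all in its inner part and 2 of them under its peak, at bases 4028 and 4680. The palindromic form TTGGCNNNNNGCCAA, which can overlap it, was in 0 of 546 ERVL peaks, over their whole width, and in 13 of 34600 listed peaks. A site of the form TGATTNNATCA, close to that of Dux, the activator of MERVL in the embryo, was also counted. It was in 1 of 546 ERVL peaks (0.183%), in 0.249% of all listed peaks and in 0 of the 1924 LTR copies. This form fixes the outermost base at each end. The LTR shown above holds agattgaatct, which differs from the form in those bases only and was not counted. The 0 of 1924 therefore does not show that the LTRs lack a Dux site. The polyadenylation signal AATAAA was in 98.5% of the LTR copies and in the central 300 bp of 2.89% of MERVL-int peaks, against 20.1% of all listed peaks. A match of letters is a description and does not show that a factor binds.

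In the genome, ERVL peaks lay between genes or in introns. By the authors' class of the centre, 378 were intergenic (68.6%, 64.6 to 72.3%) and 173 were in introns (31.4%, 27.7 to 35.4%). The same classes held 59.4% and 34.2% of all listed peaks, and 82.6% and 17.3% of ERVK peaks. Of the ERVL peaks 0 were in an exon, but the same annotation names an exon before it names a repeat, so this is fixed by how the members were named. The intronic share of ERVL peaks was above that of ERVK peaks, with intervals that did not overlap, and that of ERVL-MaLR peaks, the related family, was 33.9%. MT2B stood at the other end from MERVL_2A-int, with 10 of 18 peaks in introns against 1 of 16.

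MERVL-int peaks lay farther from the nearest TSS than those on several of the LTR names. The median distance to the nearest TSS was 51.5 kb for MERVL-int, 34.4 kb for MT2A, 31.3 kb for RMER15 and 16.2 kb for MT2B, against 37.4 kb over the list. MERVL_2A-int, also an inner part, had 24.3 kb, with 18.8% (6.59 to 43.0%) of its peaks beyond 100 kb. Beyond 100 kb of any TSS lay 35.4% (29.7 to 41.5%) of MERVL-int peaks, 16.0% (9.63 to 25.5%) of those on MT2 LTRs and 26.1% of the list. For MT2A alone it was 27.9% (16.7 to 42.7%) and for MLT2 LTRs 22.7% (10.1 to 43.4%), with intervals that overlap that of MERVL-int. Within 10 kb of a TSS, where promoters again count in the list only, lay 16.5% (13.6 to 19.8%) of ERVL peaks and 19.4% of the list. For MT2B this was 8 of 18.

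**Figure D5:**
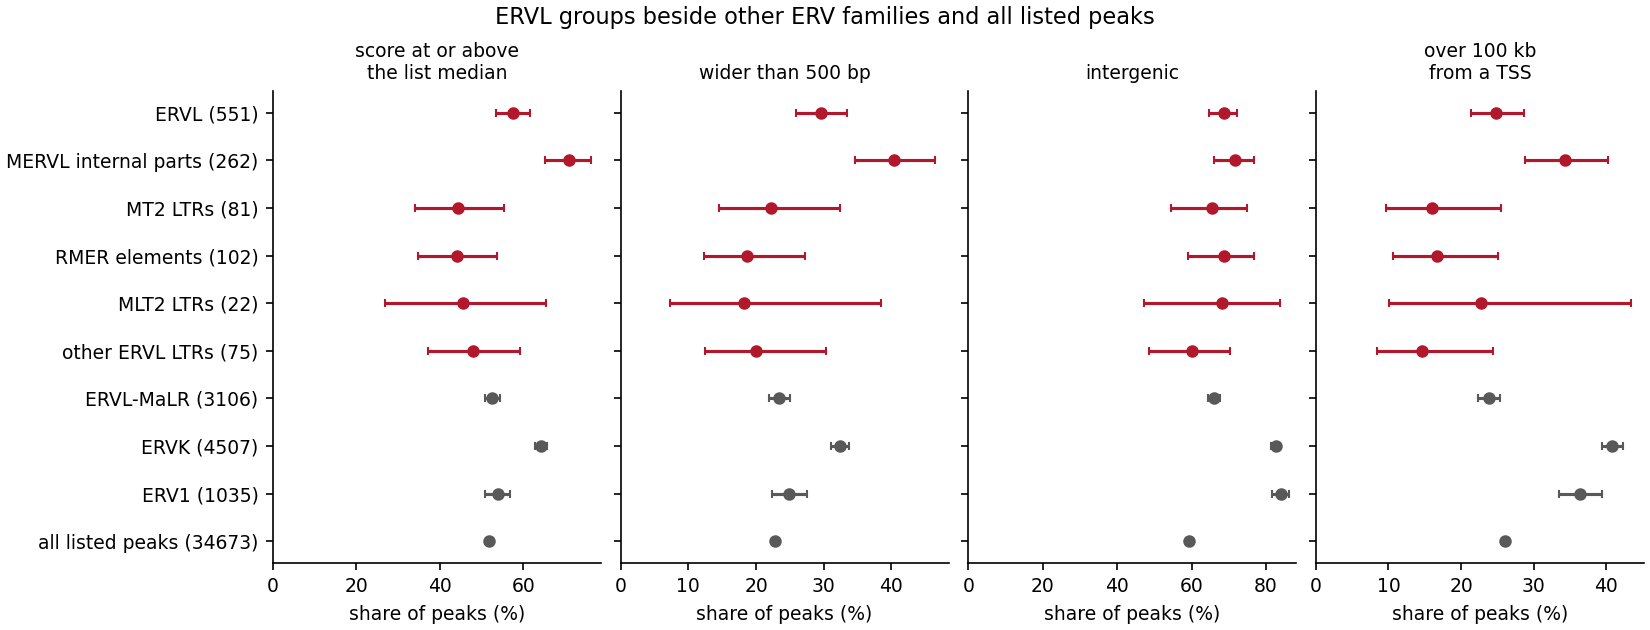
Share of peaks (%, points with 95% Wilson intervals) at or above the median score of the list, wider than 500 bp, intergenic, and over 100 kb from the nearest TSS, for the groups of ERVL names (red) beside 3 other retrovirus families and the whole list (grey); the number of peaks is in brackets. The inner parts of MERVL stand above the other ERVL groups shown for score (71.0%), width (40.5%) and distance (34.4%). In each of these the interval overlaps that of MLT2 LTRs, the smallest group shown. The intergenic shares of the ERVL groups overlap.

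Only 7 ERVL peaks lay within 2 kb of a TSS, 1.27% (0.617 to 2.60%) against 3.38% of the list. The annotation names a promoter, like an exon, before it names a repeat: 279 listed peaks were in the promoter class and 0 of the ERVL, ERVL-MaLR, ERVK or ERV1 peaks were, so the lower share is in part fixed by how the members were named. In the other families the share within 2 kb was 1.42% for ERVL-MaLR, 0.777% for ERVK and 1.16% for ERV1. The nearest was a peak on MLT2D with a score of 5.13, 0.477 kb from the TSS of Col6a6, a collagen VI chain, in intron 1 of 36. Peaks on MLT2B5 and MLT2B4 lay 1.61 kb from Epp13 and 1.66 kb from Cldn14, a tight-junction claudin. The remaining 4 were on MT2A at Gm4371, MERVL-int at Gm10653 and Fam205a2, and RMER15 at Efhd1. Of the 7, 3 were on MLT2 names, which had 22 peaks in all.

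ERVL peaks were scattered over genes. They had 506 nearest genes, of which 464 had 1 such peak and 3 had 3. Skint10, of a family of immunoglobulin-like genes of skin and thymus, had the TSS nearest to 3 MERVL-int peaks, with scores of 5.78, 8.34 and 6.74. They lay 150 to 253 kb upstream of it, on 2 proviruses inside the neighbouring gene Skint6. Btbd35f14 and Btbd35f2, of a multicopy family on the X chromosome, had 3 each, all on names other than MERVL-int, with scores of 5.46 to 10.9. By chromosome, ERVL peaks were 0.855 to 2.05% of the listed peaks on autosomes, 2.30% (1.60 to 3.31%) on the X chromosome and 1.06% (0.487 to 2.29%) on the Y chromosome, where each of the 6 was on an inner part of MERVL.

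Neighbouring ERVL peaks were mostly MERVL. Another listed peak lay within 10 kb of 32.8% (29.1 to 36.9%) of the ERVL peaks, against 33.3% over the list. Another ERVL peak lay within 10 kb of 38 (6.90%, 5.07 to 9.32%), and 33 of the 38 were on inner parts of MERVL. Peaks on the same provirus contribute to this count.

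Lists of genes of 5 kinds were set beside the ERVL peaks. Of 46 genes of the 2-cell stage, 5 were nearest to an ERVL peak (10.9%, 4.73 to 23.0%), and 32 were nearest to any listed peak. Of the 122 listed peaks of these genes, 5 (4.1%) were ERVL peaks, against 1.59% of the whole list. The RefSeq table held 45 of the 46 genes. The ERVL peak was on MERVL-int for Usp17ld, a deubiquitinase gene (score 15.7, 10.0 kb from the TSS), Zscan4c (12.2, 20.2 kb), Zscan4d (8.34, 80.5 kb) and Obox3, a homeobox gene (7.06, 34.6 kb). Zscan4 genes act in telomere upkeep and are known for their expression in 2-cell embryos. The ERVL peak at Dppa2, an activator of the 2-cell programme, was on RLTR28B (6.1, 24.6 kb). Several of these genes lie in clusters of close copies.

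The counts for the other lists were 4 or fewer. Of 81 axon guidance and migration genes, 4 had an ERVL peak (4.94%, 1.94 to 12.0%), and 1.91% of the 209 peaks of these genes were ERVL peaks, near the 1.59% of the list. Unc5d, a netrin receptor, had a MERVL-int peak with a score of 11.6 at 40.2 kb, Robo1, a Slit receptor, had one with 6.1 in intron 1 of 28, Nrp2, a semaphorin receptor, had an RMER10A peak with 8.99 at 23.7 kb, and Cxcr4, a chemokine receptor, had an MT2A peak with 5.78 at 307 kb. Of 87 genes of the ECM-receptor list, Col6a6 alone had one (1.15%, 0.203 to 6.23%), which is 0.704% of the 142 listed peaks of these genes. Of 41 genes of the machinery that silences retroviruses 0 had one, but these genes had only 58 listed peaks in all. Of 37 genes of BG and astroglia 0 had one, with 73 listed peaks in all. With so few peaks, these zeros do not set either list apart from the share over the whole list. A nearest gene is an assignment by distance and does not show that a peak acts on it.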

How the data were processed

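The authors aligned paired reads to mm10 with Bowtie2 (2.2.8 in the submitters' processing notes), gave a read with several matches the 1 location of best score, kept 1 tag per position, and called peaks with HOMER (4.10.1), requiring an excess of tags over the surrounding 10 kb. The deposited list gives for each peak a position, a score and the authors' annotation of its centre. The scale of the score and the way libraries were merged were not stated. The study took peaks of WT BG that mutant BG lacked, and a heading of the list can be read as naming input, mutant BG or both as the background of the call.

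ERVL peaks were selected by the family name. Elements named are all MERVL and MT2 names and others with 10 or more peaks. Genes named are those next to the 10 highest scores, with 3 or more ERVL peaks, with an ERVL peak within 2 kb of their TSS, or in a gene list. The members and lists were chosen with earlier results of these data known. Shares have 95% Wilson intervals and medians have order-statistic intervals (scipy 1.17.1). No test was run. Sequence came from RefSeq GRCm38.p6 for 546 peaks on chromosomes 1 to 19, X and Y (5 were on scaffolds), and copies were sought with blastn 2.17.0. The planned MT2_Mm query lay on a scaffold, so the LTR of the top MERVL-int provirus replaced it. The motif and provirus searches were tested on simulated data. Alternatives changed the score, width, distance and identity limits.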

Additional observations from a re-analysis of the deposited data

How the results depend on the processing

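No paired analysis was possible because the list has no value for any library, and for the same reason no replicate could be left out. The list gives neither depth nor spread. The planned search from MT2_Mm was not run and was replaced by one from the LTR of a MERVL provirus. The provirus searches and their alternatives were chosen after seeing the data. Of 87 alternatives to 22 results, 58 stayed within the 95% interval of the value given (for counts, within 1.5 times). For motifs, the main values were those of whole ERVL peaks: 44.0% for TTGGCA, 28.0% for AATAAA and 0.183% for TGATTNNATCA. The last is called the Dux site below.

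With only peaks at or above the median score, ERVL had 1.77% of the list, MERVL and MT2 names had 70.0% of the ERVL peaks, the median score was 8.99, 51.1% were wider than 500 bp, 19.6% had another listed peak and 4.42% another ERVL peak within 10 kb, the median GC content was 48.9%, TTGGCA was in 50.3% and AATAAA in 23.9%, and 6 genes of the lists, not 10, had an ERVL peak. With only peaks of 500 bp these were 1.45% of the list, 56.4% on MERVL and MT2 names, a median score of 6.42, 39.9% at or above the median score, 27.3% with another listed peak, 35.0% with TTGGCA and 0% with the Dux site. With 1 ERVL peak kept per 10 kb, 27.8% had another listed peak and, by construction, 0% another ERVL peak.

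In the central 300 bp the median GC content was 49.3%, the CpG ratio 0.19, and TTGGCA and AATAAA were in 24.2% and 13.9%. Within 2 kb and 50 kb of a TSS were 1.27% and 59.2%. Another listed peak was within 5 kb of 18.5% and within 50 kb of 77.7%, and another ERVL peak within 50 kb of 10.9%. With LTR copies of at least 80% identity, 85.5% of MERVL-int peaks lay on a provirus. At an identity of 95% and at a spacing of 5.5 to 6.5 kb, the share of proviruses with a peak was 30.7% and 31.2%.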

Other observations

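An LTR copy lay within 8 kb of 208 of the 242 MERVL-int peaks (86.0%, 81.0 to 89.8%), and on both sides of 190 of them. The number with a copy within 4 kb was also 208, and 149 of the 242 had one on both sides. For the 38 MERVL-int peaks with no direct repeats around them the median score was 7.54, against 8.02 for the 204 between such repeats.

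Of the 5 peaks on MERVL proviruses that were not named MERVL-int, 2 were on ERVL-B4-int nearest to Mycn, with scores of 8.66 and 8.34, on the same provirus, and 2 were on MERVL_2A-int, of which the one on the Y chromosome, nearest to Zfy2, had a score of 10.9. The last was on MT-int, of the ERVL-MaLR family. Chromosome 18 had 18 of the 558 proviruses, of which 3 held a listed peak. These values were chosen after they were seen.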
